A study of Oryza sativa Japonica Group with 4 samples.

Results

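The values below follow 10 nuclear genes of chloroplast greening through developing rice panicles with a knockdown of OsbZIP47, a bZIP transcription factor of the TGA type. The genes are 10 of the 37862 in the count table, taken by their identifiers: CAB1R (Os09g0346500), CAB2R (Os01g0600900), PsbS (Os01g0869800), RBCS (Os12g0274700, Os12g0291100 and Os12g0292400), PORA (Os04g0678700), PORB (Os10g0496900), GLK1 (Os06g0348800) and GLK2 (Os01g0239000). All 10 passed the filter on low counts, as did 25289 genes of the whole table. RNA came from inflorescences of the cultivar TP309, 0.1 to 0.5 cm long, of the dsRNAi line 14 (OsbZIP47KD, n = 2 libraries) and of wild-type plants (WT, n = 2 libraries). In line 14 a hairpin RNA against a piece of the 3′ UTR of OsbZIP47 is transcribed from the maize ubiquitin promoter. Since both OsbZIP47KD libraries come from line 14, effects of that line cannot be told apart from those of the knockdown. The study calls the libraries of a group biological replicates, and the hour of collection is not given in the sources used here.

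Greening turns a colourless plastid into a chloroplast. GLK1 and GLK2 are transcription factors that switch on nuclear photosynthesis genes, PORA and PORB are enzymes that reduce protochlorophyllide to chlorophyllide in the light, and CAB1R and CAB2R encode proteins that bind chlorophyll and carry light energy to photosystem II. PsbS is the photosystem II protein through which excess light energy is lost as heat, and RBCS is the small subunit of Rubisco, the enzyme that fixes carbon dioxide. Many genes of greening, though not all, are abundant in leaf blades, depend on light and in many plants follow the circadian clock. Young panicles wrapped in leaf sheaths are pale. The response to light of PORA, or of any other gene named here, was not tested.

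The raw counts summed to 3839165 and 4063036 in the OsbZIP47KD libraries and to 5611969 and 5100799 in the WT libraries. The 10 genes together took 539 and 987 of these counts in OsbZIP47KD and 1309 and 1687 in WT. OsbZIP47 (Os06g0265400) itself had 1003 and 919 counts in the libraries labelled OsbZIP47KD and 471 and 261 in the WT libraries, and was called higher (log2 fold change 1.77 ± 0.25 SE, edgeR adjusted p = 0.0141). Transcripts of the hairpin can add to this count, but their part in it was not tested. The count therefore does not check the labels, and every direction below rests on those labels. Levels are given as CPM, counts scaled by library size and TMM factor, in which 1 count was worth 0.261 and 0.239 CPM in OsbZIP47KD and 0.189 and 0.199 CPM in WT. DL (Os03g0215200), a regulator of carpel identity, had 77 and 116 counts in OsbZIP47KD and 73 and 46 in WT, and OsMADS16 (Os06g0712700), a regulator of lodicule and stamen identity, had 90 and 303 counts in OsbZIP47KD and 109 and 120 in WT. These genes, named here after their values were seen, were thus detected in every library. DL stands for DROOPING LEAF, and its detection does not by itself tell panicle from leaf tissue. The 7 panicle markers fixed by identifier for the comparison were left out, since none had its symbol in the study's list of deregulated genes. Their values are not given here, and a wider check of the tissue was not made.

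Of the 10 genes, 1 was called lower in the libraries labelled OsbZIP47KD and none was called higher at an adjusted p under 0.05. Adjusted p-values are those of the quasi-likelihood fit in edgeR over all 25289 genes unless another tool is named. Over all genes tested, 0.522% were called lower and 0.127% higher, which is 132 and 32 genes, against 121 and 52 genes with library size scaling. The called gene was CAB1R, and the next lowest were PORA and CAB2R, while the other 7 genes had fold changes above 0 and none of these passed the test. DESeq2 and edgeR's exact test also called none of the 10 higher, and no member was higher at an unadjusted p under 0.05. By the cut-off the study used, an absolute log2 difference of 1 or more together with an unadjusted p no higher than 0.05, 3 of the 10 genes were lower and none was higher, against 2.50% and 4.62% of all genes tested. Both OsbZIP47KD libraries lay below both WT libraries for 3 genes and above both for 2, and the groups overlapped for 5. Among all genes tested, 22.8% lay below in this way and 23.0% above. The median log2 fold change of the 10 genes was 0.24, and that of all genes tested was 0.02.

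**Figure D1:**
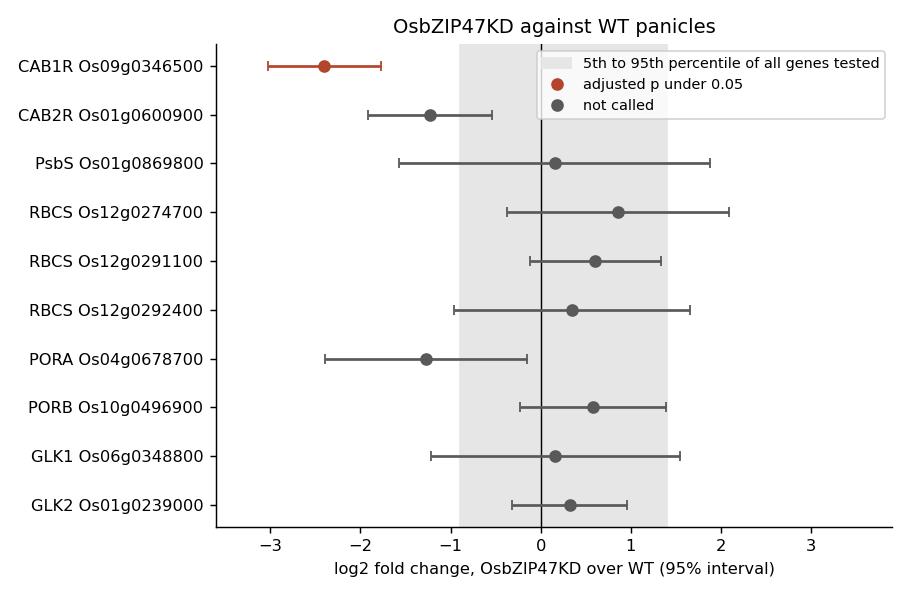
Log2 fold change of each gene in OsbZIP47KD over WT panicles (x axis, n = 2 libraries each) with its 95% interval from edgeR's quasi-likelihood fit, over a grey band that spans the middle 90 percent of all genes tested. Only the interval of CAB1R, from -3.03 to -1.77, belongs to a called gene, and those of 7 genes include 0.

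The largest difference was in light harvesting. CAB1R was at 9.66 and 9.54 CPM in OsbZIP47KD and at 55.2 and 46.3 CPM in WT. The libraries of each group lay close together and far from the other group. CAB1R fell 5.28-fold, with a log2 fold change of -2.40 ± 0.29 (SE) and an edgeR adjusted p = 0.00357, and it ranked 16th by p among all genes tested. It was called in each of the 14 other settings and tools, with adjusted p-values between 8.19e-10 (the edgeR exact test) and 0.0328 (edgeR without OsbZIP47KD replicate 1), and its log2 fold change was -2.57 when WT replicate 2 was left out and -2.28 when WT replicate 1 was. CAB2R, the paralog with the same task, was at 38.6 and 57.7 CPM in OsbZIP47KD and at 81.2 and 145 CPM in WT. Its groups did not overlap, but the WT libraries differed from each other by more than WT replicate 1 did from OsbZIP47KD replicate 2. CAB2R, at a log2 fold change of -1.23 ± 0.31 (SE), did not pass (edgeR adjusted p = 0.121). Among other settings, it passed without WT replicate 1 (edgeR adjusted p = 8.02e-06, log2 fold change -1.61) and with DESeq2, the exact test and no filter, with 0.258 as the highest adjusted p of any setting, and its log2 fold change was -0.80 without WT replicate 2.

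CAB1R took 20% and 14.2% of the counts of both CAB genes in OsbZIP47KD, against 40.5% and 24.2% in WT. The exact 95% binomial interval of OsbZIP47KD replicate 1, from 14.5% to 26.5%, overlaps that of WT replicate 2, from 21.5% to 27.0%. By its point values alone, the share was lower in both libraries labelled OsbZIP47KD than in either WT library. The WT libraries differed by as much as the groups, whose means differed by -15.2 percentage points. A two-sided exact permutation test gave p = 0.333, the smallest p that 2 against 2 libraries allow. The treatment of reads that match both CAB genes is not given in the sources used here, so this split is uncertain.

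PsbS had few reads, with 10 and 20 counts in OsbZIP47KD and 8 and 26 counts in WT, which is 2.61 and 4.77 CPM in OsbZIP47KD and 1.51 and 5.17 CPM in WT. The groups overlapped, and the spread within WT was wider than any difference between the groups. Its log2 fold change of 0.15 has a 95% interval from -1.58 to 1.88, which includes the log2 fold change of CAB2R.

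**Figure D2:**
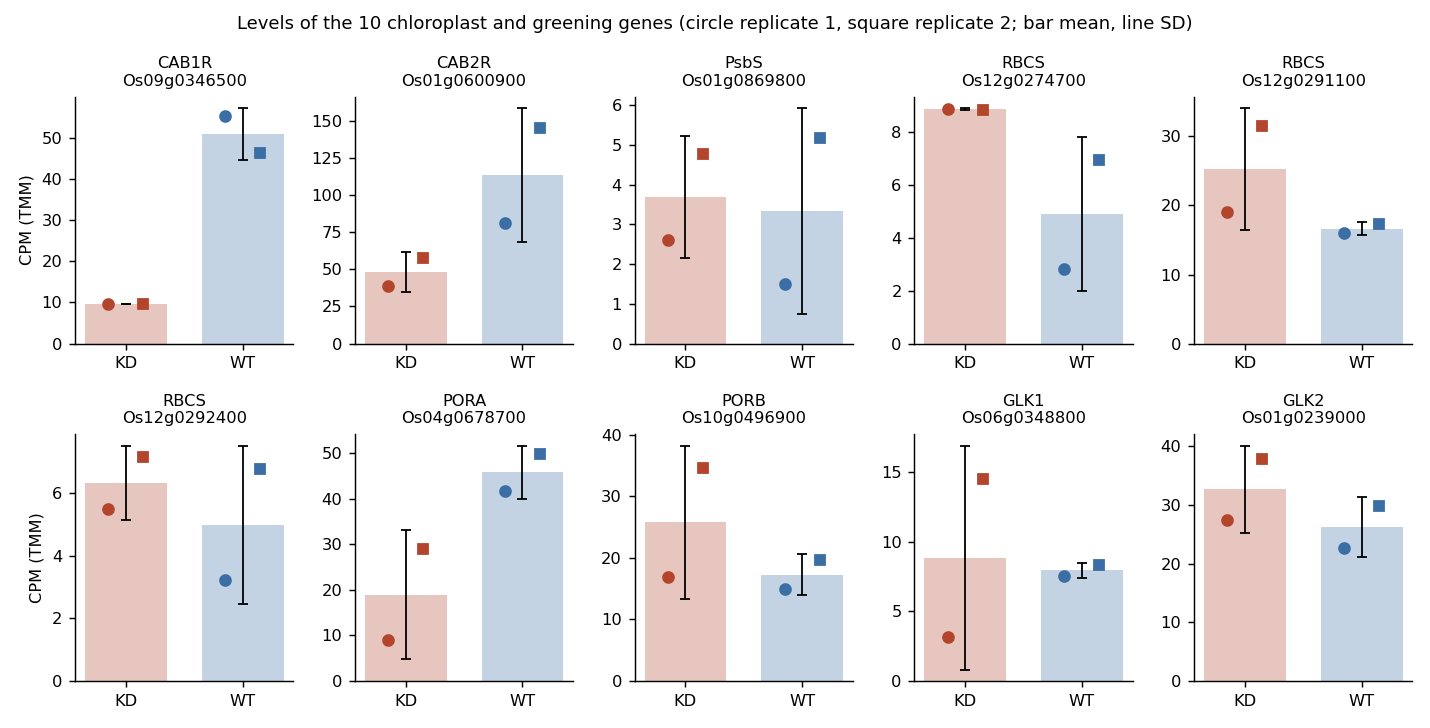
Level of each gene in CPM (y axis, linear from 0, a scale of its own in each panel) in OsbZIP47KD (KD) and WT panicles, with a point for each library, the bar at the mean and the line at 1 SD (n = 2). CAB1R sits at 9.66 and 9.54 CPM in OsbZIP47KD against 55.2 and 46.3 CPM in WT, while GLK1 spans 3.13 to 14.6 CPM within OsbZIP47KD.

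Neither protochlorophyllide oxidoreductase passed the test, and their fold changes had opposite signs. PORA was at 8.88 and 28.9 CPM in OsbZIP47KD and at 41.7 and 49.9 CPM in WT. Both OsbZIP47KD libraries were below both WT libraries, and they differed more than 3-fold from each other. PORA, at a log2 fold change of -1.27 ± 0.48 (SE), was not called (edgeR unadjusted p = 0.0314, adjusted p = 0.300). Without OsbZIP47KD replicate 2 it was -2.36 and without WT replicate 1 it was -1.42, each called at an edgeR adjusted p = 0.0291 and among the settings in which PORA passed, whereas without OsbZIP47KD replicate 1 it was -0.72 (edgeR adjusted p = 0.308). The highest adjusted p of any setting was 0.353, with library size scaling in edgeR. PORB was at 17.0 and 34.6 CPM in OsbZIP47KD and at 14.9 and 19.7 CPM in WT. Its groups overlapped, and OsbZIP47KD replicate 2 stood above the other libraries. PORB had a log2 fold change of 0.58 with a 95% interval from -0.23 to 1.39 (edgeR adjusted p = 0.521), and this was -0.03 without OsbZIP47KD replicate 2.

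Within each library the ratio of the POR genes is free of library scaling. PORA took 34 of 99 POR counts in OsbZIP47KD replicate 1 and 121 of 266 in replicate 2, against 221 of 300 in WT replicate 1 and 251 of 350 in WT replicate 2. Its share was thus 34.3% and 45.5% in OsbZIP47KD and 73.7% and 71.7% in WT. The exact 95% binomial intervals, which cover counting error only, ran from 25.1% to 44.6% and from 39.4% to 51.7% in OsbZIP47KD, and from 68.3% to 78.6% and from 66.7% to 76.4% in WT, with no overlap between the groups. The groups differed by -32.8 percentage points, more than 4 times the SD of 7.88 points between the OsbZIP47KD libraries, with p = 0.333 from a two-sided exact permutation test, the smallest p this design can give. This ratio was looked at after the levels were seen. As for the CAB genes, the treatment of reads that match both POR genes is not given, so this split is uncertain too. Across the 6 shares tested within families every adjusted p was 1.

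**Figure D3:**
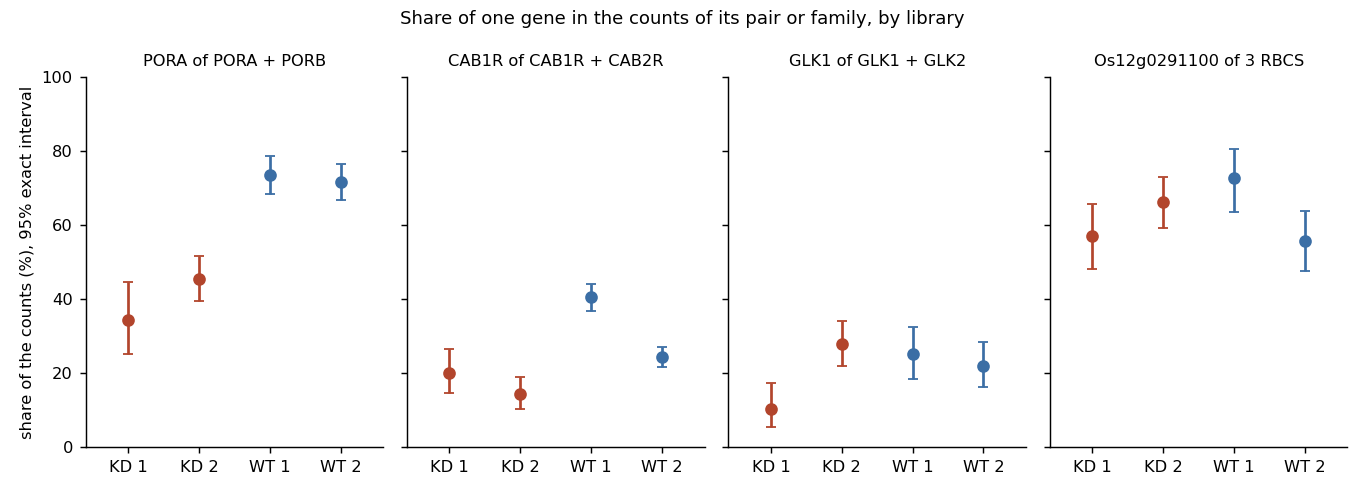
Percentage of the counts of a pair or family taken by 1 gene (y axis) in each OsbZIP47KD (KD) and WT library, with exact 95% binomial intervals. PORA took 34.3% and 45.5% of the POR counts in OsbZIP47KD and 73.7% and 71.7% in WT, while the shares of GLK1 and of RBCS gene Os12g0291100 overlap between the groups.

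The Rubisco small subunit genes gave no called difference, and all 3 had fold changes above 0. Os12g0274700 was at 8.88 and 8.83 CPM in OsbZIP47KD and at 2.83 and 6.96 CPM in WT. Both OsbZIP47KD libraries were above both WT libraries, and the WT libraries differed from each other more than WT replicate 2 did from OsbZIP47KD. Os12g0291100 was at 19.1 and 31.5 CPM in OsbZIP47KD and at 16.02 and 17.3 CPM in WT, again without overlap. Os12g0292400 was at 5.48 and 7.16 CPM in OsbZIP47KD and at 3.20 and 6.76 CPM in WT, where the groups overlapped. The log2 fold changes were 0.86 (95% interval -0.38 to 2.09) for Os12g0274700, 0.60 (95% interval -0.12 to 1.33) for Os12g0291100 and 0.35 (95% interval -0.96 to 1.65) for Os12g0292400, with edgeR adjusted p-values of 0.446 to 0.849. The sum of the 3 genes was 33.4 and 47.5 CPM in OsbZIP47KD and 22.1 and 31.0 CPM in WT. Rubisco small subunits are a family of near-identical copies, so that reads may have been split or dropped between them and the values of single copies are uncertain. Of the RBCS counts, Os12g0291100 took 57.0% and 66.3% in OsbZIP47KD and 72.6% and 55.8% in WT, with groups that overlapped.

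Neither GLK gene passed the test. GLK1 was at 3.13 and 14.6 CPM in OsbZIP47KD and at 7.54 and 8.35 CPM in WT. The OsbZIP47KD libraries lay on either side of the WT libraries, which were close together. The log2 fold change of GLK1 was 0.16 with a 95% interval from -1.22 to 1.54 (edgeR adjusted p = 0.940). Its sign depended on a single library, with -1.33 when OsbZIP47KD replicate 2 was left out and 0.82 when OsbZIP47KD replicate 1 was. GLK2 was at 27.4 and 37.9 CPM in OsbZIP47KD and at 22.6 and 29.8 CPM in WT. The groups overlapped, with the highest value in OsbZIP47KD replicate 2. GLK2 had a log2 fold change of 0.32 with a 95% interval from -0.31 to 0.95 (edgeR adjusted p = 0.676), which leaves out a fall of the size of either CAB gene. GLK1 took 10.3% and 27.7% of the counts of both GLK genes in OsbZIP47KD and 25% and 21.9% in WT, so that the OsbZIP47KD libraries differed from each other more than the groups did.

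A difference between the replicates ran through most of these genes. OsbZIP47KD replicate 2 was above replicate 1 for 8 of the 10 genes and WT replicate 2 above replicate 1 for 9 of the 10, against 51.1% and 50.1% of all genes tested. In OsbZIP47KD the log2 ratio of replicate 2 to replicate 1, taken after 1 CPM was added, was 1.91 for GLK1 and 1.60 for PORA, above 98.9% and 97.9% of all genes tested, and 0.99 for PORB. CAB1R was at -0.02 and RBCS gene Os12g0274700 at -0.01, so the called gene did not share this difference. In WT the same log2 ratio was 1.30 for PsbS, 1.06 for Os12g0274700, 0.88 for Os12g0292400 and 0.83 for CAB2R, and -0.25 for CAB1R. Genes that differed most between the OsbZIP47KD libraries were thus other ones than those that differed most between the WT libraries. OsMADS16 also was higher in OsbZIP47KD replicate 2, at 72.3 CPM, than in replicate 1, at 23.5 CPM, and the part of panicle stage or tissue in these differences was not tested. Summed over all 10 genes, levels were 141 and 235 CPM in OsbZIP47KD and 247 and 335 CPM in WT, and the groups did not overlap. Without CAB1R, CAB2R and PORA, the other 7 genes summed to 83.5 and 139 CPM in OsbZIP47KD. In WT these 7 genes summed to 68.6 and 94.0 CPM, and the groups overlapped. The 3 genes taken out are those with fold changes below 0, so the choice itself set that the rest was not lower in OsbZIP47KD. Fewer cells with plastids of a given kind and less RNA per cell cannot be told apart in such bulk tissue.

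**Figure D4:**
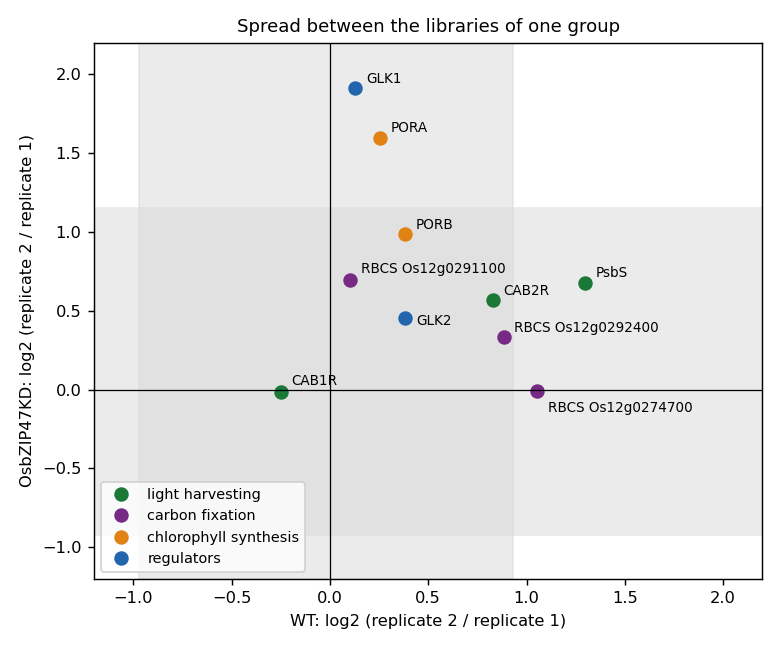
Log2 ratio of replicate 2 to replicate 1, after 1 CPM was added, in WT (x axis) and in OsbZIP47KD (y axis) for each gene, with grey bands over the middle 90 percent of all genes tested in each direction. GLK1 at 1.91 and PORA at 1.60 lie above the OsbZIP47KD band, PsbS at 1.30 and RBCS gene Os12g0274700 at 1.06 lie beyond the WT band, and CAB1R lies near 0 in OsbZIP47KD.

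**Figure D5:**
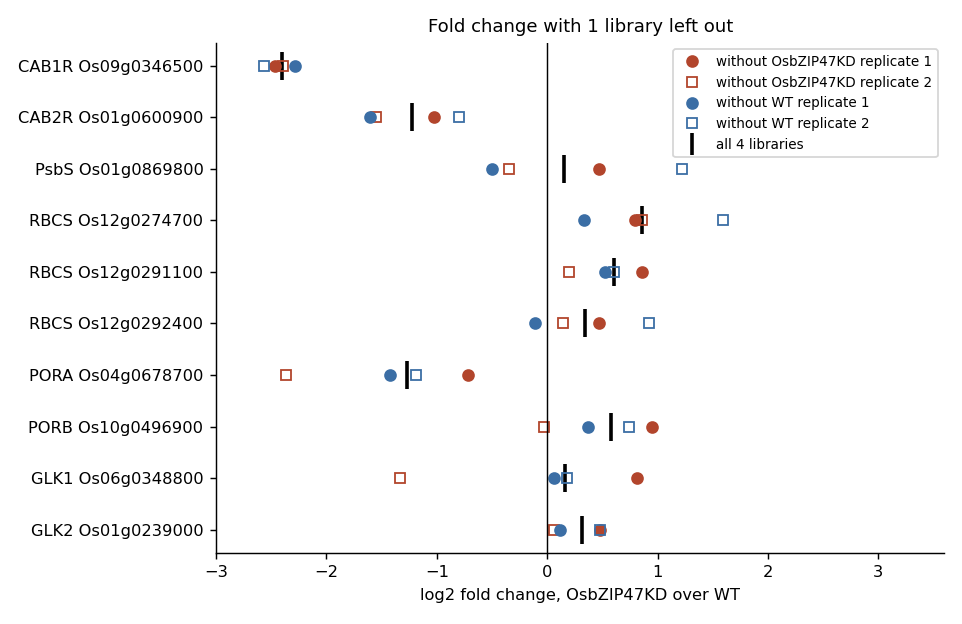
Log2 fold change of each gene (x axis) with all 4 libraries (black line) and with 1 library left out (symbols). CAB1R stays between -2.57 and -2.28, PORA runs from -2.36 to -0.72 and GLK1 from -1.33 to 0.82.

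Other genes of photosynthesis and plastids could be named only where the study's own list of deregulated genes gave a description, 10 genes in all. Their directions are therefore not independent evidence. The share called among all genes of that list is not given here, so a count called among these 10 genes shows no excess. Of these 10 genes, 3 were called lower and none was called higher, and without OsbZIP47KD replicate 1 none was called lower. Of 2 further light-harvesting genes, both had fold changes below 0. Lhca4 (Os08g0435900), an antenna protein of photosystem I, was at 13.1 and 24.6 CPM in OsbZIP47KD and at 53.7 and 57.8 CPM in WT. It fell with a log2 fold change of -1.56 (edgeR adjusted p = 0.0475). This call was lost without OsbZIP47KD replicate 1 (edgeR adjusted p = 0.118), with library size scaling (0.0580) and with upper quartile scaling (0.0628), and the lowest adjusted p was 0.000164 with no filter. OsLhca3 (Os02g0197600), another antenna protein of photosystem I, was at 3.92 and 13.1 CPM in OsbZIP47KD and at 20.9 and 25.6 CPM in WT, and did not pass the test (log2 fold change -1.44 ± 0.48 SE, edgeR adjusted p = 0.222, between 0.0374 with no filter and 0.328 without OsbZIP47KD replicate 1). Like PORA, OsLhca3 and Lhca4 were higher in OsbZIP47KD replicate 2 than in replicate 1.

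Of 3 photosystem subunits, 1 was called lower. PSAO (Os04g0414700), a small subunit of photosystem I, was at 7.83 and 8.35 CPM in OsbZIP47KD and at 37.9 and 34.8 CPM in WT. It fell with a log2 fold change of -2.16 (edgeR adjusted p = 0.0105), and missed the threshold without OsbZIP47KD replicate 1 (edgeR adjusted p = 0.0541), the highest of adjusted p-values that started at 9.47e-07 with the exact test. PSBY (Os08g0119800) and Os03g0333400, described as proteins of photosystem II, had log2 fold changes of 1.63 and 1.76 and did not pass. PSBY was at 11.7 and 15.3 CPM in OsbZIP47KD and at 4.71 and 3.97 CPM in WT. These 3 genes thus lay on both sides of the comparison, and being taken from the study's list of deregulated genes they do not stand for photosystem genes outside it.

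The description "transketolase" gave 1 gene, OsDXS1 (Os05g0408900), which acts in plastid isoprenoid synthesis and not in the Calvin cycle. It was at 56.4 and 52.0 CPM in OsbZIP47KD and at 127 and 109 CPM in WT, and fell with a log2 fold change of -1.13 (edgeR adjusted p = 0.0293). This call was lost without OsbZIP47KD replicate 1 (edgeR adjusted p = 0.0832) or replicate 2 (edgeR adjusted p = 0.146, the highest of any setting), and the lowest adjusted p was 0.00033 with no filter. Of 3 genes described as pheophorbide a oxygenases, the enzymes of chlorophyll breakdown, none was called, 2 had fold changes below 0 and 1 above 0. Os02g0792800 was at 27.4 and 12.6 CPM in OsbZIP47KD and at 6.97 and 12.3 CPM in WT, and Os03g0805900 at 3.92 and 1.43 CPM in OsbZIP47KD and at 6.22 and 7.95 CPM in WT. A plastid 50S ribosomal protein (Os11g0550800) was at 21.9 and 15.5 CPM in OsbZIP47KD and at 6.22 and 11.1 CPM in WT, with a log2 fold change of 1.11 that did not pass.

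Of 6 clock genes set by identifier as markers of the hour of day, 2 carried the same symbol in the study's list of deregulated genes. Both were called lower, but the match was made through that list, so that these directions are not independent evidence either. The other clock markers were left out and their values are not given here, so the 2 genes do not stand for all 6. Among those left out was OsPRR73 (Os03g0284100), which the list names OsCCT11. OsPRR95 (Os09g0532400), a pseudo-response regulator, was at 41.3 and 38.2 CPM in OsbZIP47KD and at 269 and 232 CPM in WT (log2 fold change -2.66, edgeR adjusted p = 5.62e-05). OsLHY (Os08g0157600), a morning MYB factor, was at 9.14 and 11.7 CPM in OsbZIP47KD and at 67.7 and 44.7 CPM in WT (log2 fold change -2.43, edgeR adjusted p = 0.00518), a call missed without OsbZIP47KD replicate 1 (edgeR adjusted p = 0.0530). The summed level of both clock genes was 50.4 and 49.9 CPM in OsbZIP47KD and 337 and 276 CPM in WT. The part of the hour of collection in the fall of CAB1R was not tested.

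By Euclidean distance of mean-centred log2(CPM + 1) over the 4 libraries, the nearest profiles to CAB1R among tested genes that carry a name in the study's list included HSFA3 (Os02g0527300, distance 0.326), OsLHY (0.339), OsPRR95 (0.348) and OsLon1 (Os09g0533400, 0.360). HSFA3, a heat shock factor, was at 10.7 and 9.78 CPM in OsbZIP47KD and at 71.1 and 63.0 CPM in WT. OsLon1, described as a Lon protease homologue, was at 31.1 and 26.7 CPM in OsbZIP47KD and at 185 and 112 CPM in WT. OsSTA131, described as a pseudouridylate synthase of the TruB family, had 0 counts in both OsbZIP47KD libraries, taken as up to 3 counts over the group, and 18 and 20 counts in WT. It also came out near CAB1R, but with both OsbZIP47KD libraries at 0 its distance is set by the added 1 CPM and shows no likeness, and it was not called (edgeR adjusted p = 0.0886). Unnamed genes and genes outside the study's list were not eligible, and the likeness rests on 4 libraries of 2 groups.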

How the data were processed

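The authors made rRNA-depleted libraries, sequenced them on an Illumina HiSeq, mapped the read pairs with STAR v2.5.3a to the RAP-DB japonica genome and deposited raw counts per gene. The counting program, its strand setting and its treatment of reads with several matches are not given in the sources used here. A further deposited table holds a score, each count times 1 factor per library, rounded, and blank for genes not above 1 CPM in at least 2 libraries. The study's own fold changes and p-values were not used.

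Raw counts were tested in R v4.3.3 by the robust quasi-likelihood fit of edgeR (v4.0.16) with TMM factors, after filterByExpr (count minimum 10, total minimum 15), and p-values were adjusted by Benjamini-Hochberg over 25289 genes. Genes under 0.05 were called. Intervals are at 95%, and those of shares cover counting error only. The fit was tested on simulated data. Other settings were scaling by RLE, by upper quartile or by library size alone, a 1 CPM filter or none, DESeq2 (v1.42.0), the exact test of edgeR, limma (v3.58.1) on the log2 score with a pseudocount of 1, the replicate number as a block, removal of the 20 most abundant genes, and removal of each library. The 10 genes and the lists were chosen with earlier results of these data known. Named are the 10 genes, OsbZIP47, up to 4 called genes of a list (or its 2 most abundant where fewer were called), the matched clock genes and the 5 named genes nearest to CAB1R. DL, OsMADS16, Os03g0333400, the shares within families and the sum of 7 genes were added after their values were seen. Names of the 10 genes come with their choice, and those of CAB1R, CAB2R and PORA also stand in the study's tables. Lists were matched by description, which only the study's list of deregulated genes gave. No gene matched for chlorophyll synthesis, photorespiration or electron transport. Gene lengths were not used here, so levels were not compared between genes.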

Additional observations from a re-analysis of the deposited data

How the results depend on the processing

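The labels share replicate numbers, but the log2 ratios of replicate 2 to replicate 1 in OsbZIP47KD and in WT correlated with r = 0.04 over 25289 genes, and no source says that a number marks a shared batch. With the replicate block, 3 of the 10 genes were called lower (CAB1R, CAB2R at an edgeR adjusted p = 0.00345 and PORA at 0.0410), and 410 genes in all were lower and 186 higher. Over all genes, 132 were lower and 32 higher in the reported fit, 298 and 139 with DESeq2, 440 and 355 with the exact test, 551 and 236 with no filter, and 121 and 52 with library size scaling. With 1 library left out, genes lower ran from 49 to 850 and genes higher from 21 to 382, with the spread of the remaining pair taken for the lone library too. Of the 10 genes, 2 were called lower with DESeq2, with the exact test and with no filter, and 1 to 3 with 1 library left out. None was called higher in any setting. At the study's criterion 2 to 3 were lower and 0 to 1 higher with 1 library left out, the higher one without WT replicate 2. The 10 genes of the lists had 0 to 3 called lower with 1 library left out, and 1 called higher with the exact test. Of 140 log2 fold changes of the 10 genes over 14 other settings, 125 kept direction and call, 8 gained the call and 7 changed sign. GLK1 changed sign with limma (-0.21), with the replicate block (-0.12) and without OsbZIP47KD replicate 2 (-1.33), PsbS without WT replicate 1 (-0.50) and without OsbZIP47KD replicate 2 (-0.35), PORB without OsbZIP47KD replicate 2 (-0.025) and RBCS gene Os12g0292400 without WT replicate 1 (-0.11). Left-out libraries gave up to 0.82 for GLK1 and 0.95 for PORB (without OsbZIP47KD replicate 1), and up to 1.23 for PsbS and 0.93 for Os12g0292400 (without WT replicate 2). None of these passed the test on either side, and the cause was not tested. PsbS, at 8 to 26 counts a library, had the largest standard error of the 10 genes (0.794), and the parts of depth and of the spread between libraries in it were not tested.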
